A study of Mus musculus with 18 samples.

Results

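Treg cells of cold-exposed brown adipose tissue (BAT) were compared with Treg cells of the spleen (SPL) of mice kept warm. The comparison took the 3 arrays labelled BAT_cold_Treg and the 3 labelled SPL_warm_Treg, chosen by their labels alone, which are 6 of the 18 arrays of the study. Treg cells are CD4+ T cells that restrain immune responses and depend on the transcription factor Foxp3. Those that settle in a tissue are known to carry transcripts that their counterparts in lymphoid organs lack. BAT burns fuel to produce heat through the uncoupling protein UCP1, and cold is its natural stimulus through sympathetic nerves.

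The study asked how Treg cells of BAT differ from those of the spleen, and whether cold alters them. It profiled Treg and conventional T (Tconv) cells of warm BAT, cold BAT and warm spleen, with 3 arrays in each of the 6 groups, on the MouseWG-6 v2.0 BeadChip, a glass slide on which beads carrying a probe report its mean brightness. Per the labels, all mice were C57BL/6 carrying Foxp3-GFP-DTR-CD90.1, an allele that marks Foxp3-expressing cells with a fluorescent protein and makes them sensitive to diphtheria toxin. The labels call the Treg cells CD4+CD25+Foxp3+. The methods instead describe female C57Bl6 mice, 8 weeks old on arrival, with Treg cells sorted as CD4+CD25+ and Tconv cells as CD4+CD25-. The mice were held at 30°C for 2 weeks, and the cold group then spent 2 days at 12°C. Organs were pooled before sorting, so each array stands for a pool. The limma p-values rest on the spread between the 3 pools within a group, combined over the 6 groups, and not between single mice. A spread that differs between the groups is therefore averaged. No toxin is named for these samples. From each sample 2.5 ng of RNA was amplified before labeling.

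The 6 arrays differed in more than the tissue. Cold BAT Treg arrays came from mice at 12°C and lay on a different BeadChip from the SPL Treg arrays, whose mice stayed at 30°C. The 3 BeadChips of the study held 6 arrays each, and each carried Treg and Tconv cells of a single tissue and temperature. Tissue, temperature and BeadChip therefore cannot be told apart in the direct comparison. By the letters in the labels, Tconv cells took positions A to C and Treg cells D to F on every BeadChip. Cell type and position within a BeadChip therefore cannot be told apart. In sorted bulk cells, a change in the number of cells of one type and a change in RNA per cell cannot be told apart either. The files name the probes by Illumina identifiers, with 0 target names, so the results are for probes. Foxp3, the markers of other cell types and the genes of any pathway were not analysed here, and the identity of the sorted cells was not checked against them.

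Signals above background were more widespread in cold BAT Treg cells. Of 45267 probes, 41.7%, 40.4% and 37.1% had a detection p-value under 0.05 on the cold BAT Treg arrays, against 33.4%, 30.9% and 34.4% on the SPL Treg arrays. The 2 groups did not overlap. This detection p-value was lenient, since between 18.7% and 24.9% of the 936 negative control probes passed it on the 18 arrays. A stricter measure, the share of probes above the 95th percentile of the same array's negative controls, was 25.4%, 19% and 15.7% on the cold BAT Treg arrays and 13.3%, 10.1% and 10.3% on the SPL Treg arrays. The background overlapped between the groups. Its 95th percentile was 127, 174 and 180 intensity units on the cold BAT Treg arrays and 161, 238 and 267 on the SPL Treg arrays. The part of detection and background in the results was not tested.

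Hybridization control probes differed little between the cold BAT Treg and SPL Treg arrays, and the labeling and mismatch controls differed more. The deposited intensities of the hybridization controls, which are labelled oligonucleotides added at fixed amounts, differed between cold BAT Treg and SPL Treg arrays by a log2 of 0.06 at high, 0.05 at medium and -0.06 at low abundance. The labeling controls were lower on the cold BAT Treg arrays by a mean log2 difference of -0.21 over 8 probes. Their signals were near background, at 6.64 to 6.99 on the cold BAT Treg and 6.80 to 7.22 on the SPL Treg arrays, which overlap. The median negative control was 99.6, 119 and 121 intensity units on the former and 112, 141 and 149 on the latter. The part of background in the labeling difference was not tested. The 4 low stringency mismatch controls averaged -0.18, and their means did not overlap, at 10.72 to 10.80 on the cold BAT Treg and 10.90 to 10.97 on the SPL Treg arrays. The 14 probes of the array's own housekeeping genes averaged 0.06, but ranged from -1.41 to 1.32. Of the 14, 5 did not overlap between the groups, against 31.2% of all tested probes, there with normalized signals.

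Arrays correlated best within the cold BAT Treg group. Pearson's r over the 17395 tested probes was 0.85 on average between cold BAT Treg arrays (0.81 to 0.89, 3 pairs) and 0.79 between SPL Treg arrays (0.75 to 0.81, 3 pairs). Across the groups the mean was 0.72 (0.64 to 0.79, 9 pairs), so the best of the mixed pairs overlapped with the pairs of SPL Treg arrays. Probes within an array are not independent, and these values describe the arrays only. Spread between arrays was larger than the error of the beads. Over all tested probes the median SD between replicate arrays was 0.16 on the log2 scale in cold BAT Treg and 0.17 in SPL Treg cells, 2.4 and 2.19 times the standard error given by the beads of a probe.

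Cold BAT Treg cells differed from SPL Treg cells at 908 of the 17395 tested probes. A probe was tested when it was detected on all 3 arrays of at least 1 of the 6 groups, and was called when it changed more than 2-fold with a Benjamini-Hochberg adjusted p under 0.05 in limma. Calls were 594 higher (3.41%) and 314 lower (1.81%) in cold BAT Treg cells. The median log2 difference was 1.81 among the probes called higher (interquartile range 1.40 to 2.35, median SE 0.38) and -1.19 among those called lower (-1.37 to -1.09, median SE 0.28), against -0.11 over all tested probes. Of the probes called higher, 233 exceeded 4-fold, 65 exceeded 8-fold and 12 exceeded 16-fold. Of those called lower, 22 exceeded 4-fold and 1 exceeded 8-fold.

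**Figure D1:**
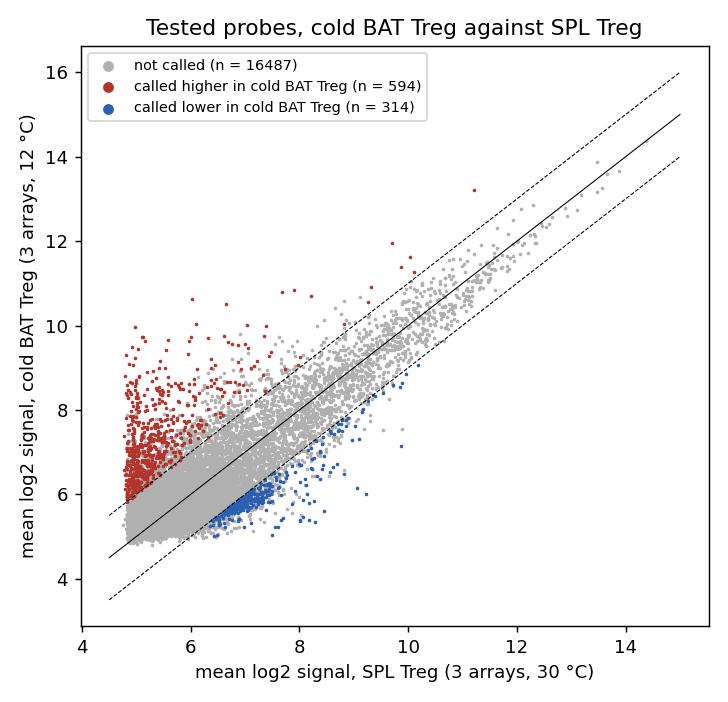
Mean log2 signal of each tested probe in cold BAT Treg (vertical axis) and SPL Treg cells (horizontal axis), 3 arrays each, with the line of equality and dashed lines at 2-fold. The 594 probes called higher (red) spread far from the 2-fold line and crowd at low SPL signals, whereas most of the 314 called lower (blue) lie close to the line.

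The size criterion and the test picked different numbers of probes. Without a test, 1378 probes exceeded 2-fold upwards and 697 downwards. At an adjusted p under 0.05 and any size, 726 were higher and 687 lower.
Of the 594 called higher, 580 had all 3 cold BAT Treg arrays above all 3 SPL Treg arrays, and 306 of the 314 called lower had the reverse order. Groups were separated in this way at 31.2% of all tested probes, 2011 of them (11.6%) with the cold BAT Treg arrays above and 3409 (19.6%) with them below. An exact two-sided permutation test of 3 against 3 arrays cannot give a p below 0.1.

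The count of lower probes depended on how the arrays were scaled. Quantile normalization gives every array the same distribution of signals. With a scaling of each array to a common median instead, 1469 probes were called higher and 15 lower, so that 99% of the calls were upwards instead of 65.4%. The median of all tested probes moved from -0.11 to 0.17, a shift of 0.28. All 594 probes stayed higher under this scaling, with a median of 2.35. All 314 stayed below 0, with a median of -0.50, but 28 of them had an adjusted p under 0.05 in limma. The sizes in the 2 directions were also closer in some settings, with medians of 1.87 and -1.75 among the probes called under median scaling and of 1.31 and -1.20 among those called without background correction. Without background correction the calls were 315 higher and 35 lower (90% higher), and with a larger offset of 50 they were 371 and 92 (80.1% higher). All 594 and all 314 kept their direction under these 3 settings, also relative to the median of all tested probes.

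Single arrays also weighed on the counts. Without cold BAT Treg replicate 1 there were 368 probes called higher and 100 lower, of which 307 and 95 were among the original calls. Of the 18 arrays, that one had the lowest background and the largest share of probes above it. Without SPL Treg replicate 2 the calls were 356 and 173, of which 323 and 114 were among the original calls. Leaving out SPL Treg replicate 1 gave 470 probes called lower. When each of the 6 arrays was left out in turn, 240 of the 594 (40.4%) and 65 of the 314 (20.7%) were called every time.

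**Figure D2:**
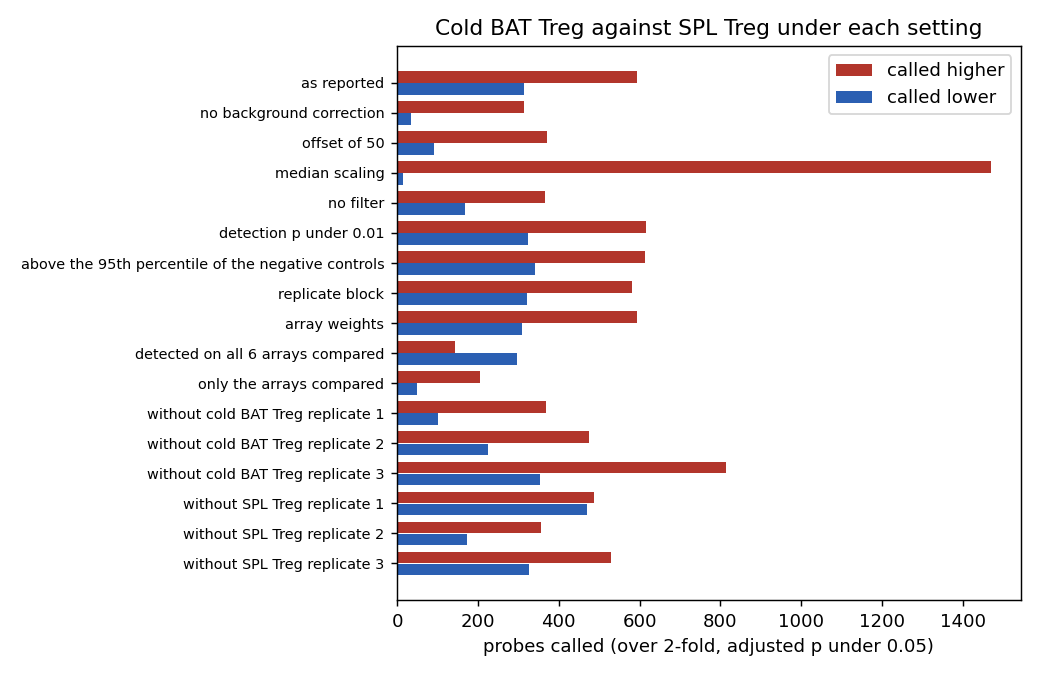
Number of probes called higher (red) and lower (blue) in cold BAT Treg against SPL Treg cells under each setting, with the reported setting in the top row. Bars for probes called lower range from 15 under median scaling to 470 without SPL Treg replicate 1, and those for probes called higher from 143 when only probes detected on all 6 arrays were kept to 1469 under median scaling.

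Most probes called higher were not fully detected in the spleen. Of the 594, 242 (40.7%) were detected on 0 of the 3 SPL Treg arrays, 114 on 1, 102 on 2 and 136 (22.9%) on all 3. Probes undetected on every SPL Treg array were called higher in 15.3% of cases, against 1.31% of those detected on all 3. Where a probe was undetected, the spleen level is uncertain, and the fitted difference depends on the background correction. With undetected signals raised to the lowest detected signal of their array, the median of the 594 was 1.72. The opposite did not hold for the probes called lower. All 314 were detected on the 3 SPL Treg arrays, and 296 (94.3%) were also detected on all 3 cold BAT Treg arrays, where 1 of them was undetected throughout. The filter used the same detection p-values as this pattern, and its part in the pattern was not tested. Through the cold BAT Treg arrays alone 609 tested probes had entered, of which 53 were called higher (8.7%, against 3.41% of all tested probes). Through the SPL Treg arrays alone 220 had entered, of which 3 were called lower (1.36%, against 1.81%).

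All 6 arrays detected 8867 of the tested probes, of which 136 were called higher (1.53%) and 296 lower (3.34%), with medians of 1.71 and -1.19. This restriction left out 458 of the probes called higher and 18 of those called lower, so the counts depend on the filter and describe the detected probes only.

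Calls in both directions rose with brightness, but not alike. Tested probes were divided into 4 classes of equal size by their mean signal over all 18 arrays. From the dimmest to the brightest class, 69, 134, 169 and 222 probes were called higher, or 1.59%, 3.08%, 3.89% and 5.1% of the class. Those called lower were 1, 7, 108 and 198, or 0.023%, 0.161%, 2.48% and 4.55%. Calls downwards were thus nearly confined to the 2 brighter classes, and calls upwards were found in every class.

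The probes with the largest differences were described singly. The 2 highest and the 2 lowest are given, in keeping with the rule for probes without a gene name. ILMN_1243212 had log2 signals of 10.37, 10.25 and 9.29 on the cold BAT Treg arrays and of 5.07, 4.99 and 4.84 on the SPL Treg arrays. All 3 cold BAT Treg arrays were far above the SPL Treg arrays, on none of which the probe was detected. The difference was 5.00 (SE 0.49, n = 3 and 3, limma adjusted p = 5.8e-05). It was 27.8-fold with the SPL Treg signals raised to the lowest detected signal of their array. That fold holds for the reported background correction only, and without the correction the log2 difference was 3.22. The probe was bright in all 4 BAT groups and in neither spleen group. Its mean was 9.06 ± 0.71 (SD, n = 3) in warm BAT Treg, 8.69 ± 0.61 in cold BAT Tconv and 7.03 ± 1.14 in warm BAT Tconv cells, and 4.97 ± 0.06 in SPL Tconv cells, where it was again undetected on all 3 arrays.

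ILMN_1241293 separated BAT from spleen and, within BAT, Treg from Tconv cells. Its log2 signals were 10.15, 9.89 and 9.15 on the cold BAT Treg arrays and 4.93, 5.18 and 5.23 on the SPL Treg arrays, of which 1 detected it. The groups lay far apart, by 4.62 (SE 0.39, limma adjusted p = 2.09e-05). With undetected signals raised in the same way and the reported background correction, this was 23.1-fold. Without that correction the log2 difference was 2.86. The signal was 9.95 ± 0.58 in warm BAT Treg cells, so cold and warm BAT Treg arrays overlapped, and the difference of -0.22 between them (limma adjusted p = 0.999) turned to 0.064 without cold BAT Treg replicate 3. On the warm BAT BeadChip, which carries none of the 6 arrays compared, the probe was higher in Treg than in Tconv cells by 2.28 (SE 0.39, limma adjusted p = 0.0112). Cold BAT Tconv cells had 7.90 ± 0.31, warm BAT Tconv cells 7.67 ± 0.90 and SPL Tconv cells 5.33 ± 0.12.

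ILMN_1243082 had its lowest mean signal of the 6 groups in cold BAT Treg cells. Its log2 signals were 5.82, 6.01 and 6.16 on the cold BAT Treg arrays, all detected, and 9.51, 10.03 and 8.12 on the SPL Treg arrays. The SPL Treg arrays were all above, though they spread far more widely. The difference was -3.22 (SE 0.59, limma adjusted p = 0.00544), a 9.33-fold lower signal. Signals in the other groups were 8.05 ± 0.29 in warm BAT Treg, 8.68 ± 0.33 in cold BAT Tconv, 8.81 ± 0.54 in warm BAT Tconv and 7.63 ± 1.48 in SPL Tconv cells, where the lowest array, at 6.23, came close to the cold BAT Treg arrays. The difference of -2.06 between cold and warm BAT Treg cells did not pass the test (SE 0.59, limma adjusted p = 0.369).

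ILMN_3041149 gave a less certain call. It had log2 signals of 5.41, 5.46 and 5.16 on the cold BAT Treg arrays, of which 2 detected it, and of 9.04, 8.87 and 6.96 on the SPL Treg arrays. SPL Treg replicate 3 stood well below the other 2 arrays, but still above all cold BAT Treg arrays. The difference of -2.95 (SE 0.75, limma adjusted p = 0.0289), a 7.73-fold lower signal, was called in 7 of 15 alternative settings, with adjusted p between 0.0163 and 0.0962. The other 3 probes were called in every alternative that tested them, 15, 15 and 16 in number. SPL Tconv cells, at 8.23 ± 1.87, spread even more than SPL Treg cells, and the remaining groups had 7.08 ± 0.75 in warm BAT Treg, 7.72 ± 0.42 in cold BAT Tconv and 7.37 ± 0.59 in warm BAT Tconv cells.

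**Figure D3:**
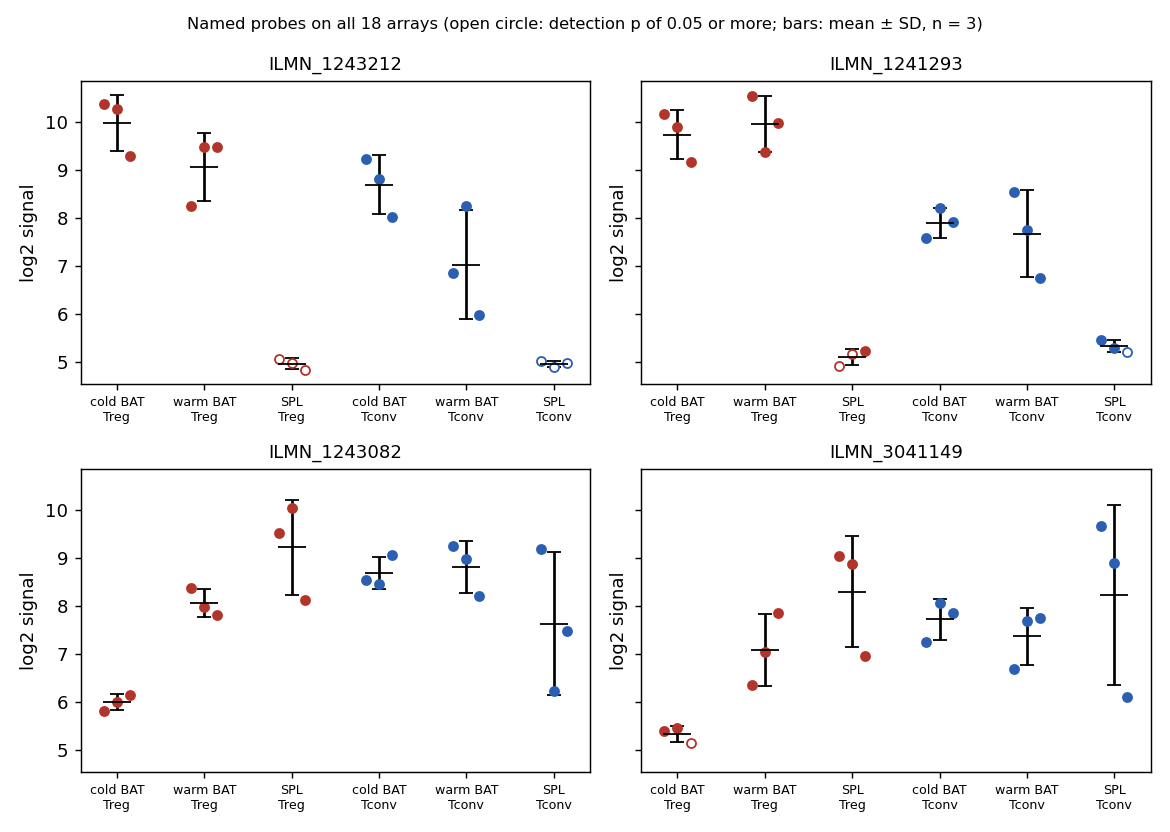
Log2 signals of the 4 named probes on all 18 arrays, with the mean and SD of each group (n = 3), Treg in red and Tconv in blue. Open circles are arrays with a detection p-value of 0.05 or more. The upper probes are bright in BAT and near background in spleen, and the lower ones have their lowest mean in cold BAT Treg cells.

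The levels of the called probes in the remaining groups were as follows, with each tissue and temperature again on a BeadChip of its own. The 594 probes called higher averaged a log2 signal of 7.43 ± 0.27 (SD over 3 arrays) in cold BAT Treg cells, with arrays at 7.66, 7.50 and 7.14, and 5.45 ± 0.09 in SPL Treg cells. They averaged 6.98 ± 0.06 in warm BAT Treg cells, below each of the cold arrays. Tconv cells of cold and warm BAT had like means of 6.19 ± 0.10 and 6.19 ± 0.11, and SPL Tconv cells were at 5.49 ± 0.07, overlapping with SPL Treg cells. The order for the 314 probes called lower was nearly the reverse. Cold BAT Treg cells had the lowest mean at 6.06 ± 0.12, followed by warm BAT Treg (6.35 ± 0.07), warm BAT Tconv (6.63 ± 0.04), cold BAT Tconv (6.73 ± 0.13), SPL Tconv (6.97 ± 0.06) and SPL Treg cells (7.38 ± 0.18). Cold and warm BAT Tconv arrays overlapped here. These probes were selected on the cold BAT Treg and SPL Treg arrays, so the positions of those 2 groups describe the selection.

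**Figure D4:**
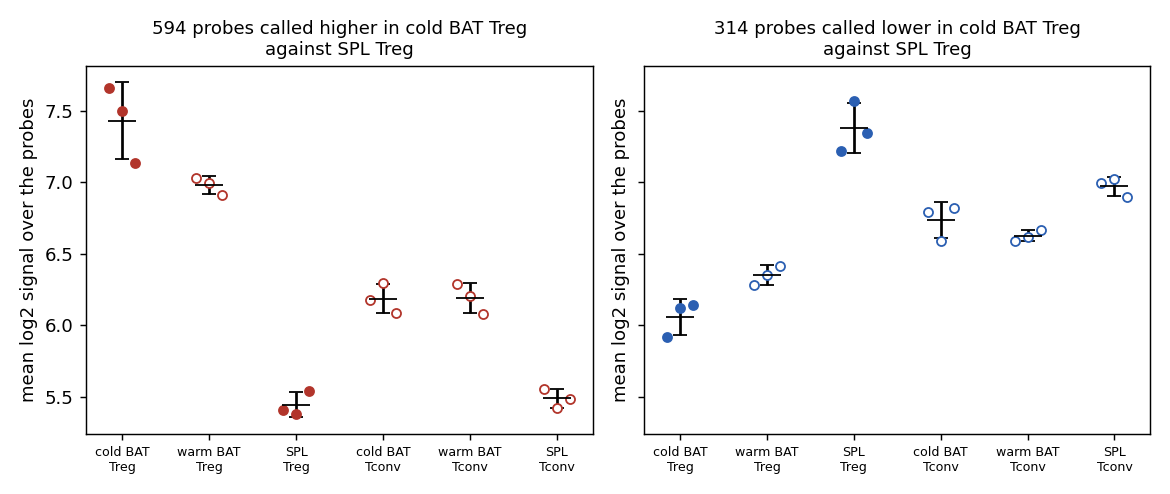
Mean log2 signal over the 594 probes called higher (left) and the 314 called lower (right) on each of the 18 arrays, with the mean and SD of each group (n = 3). Filled points are the 6 arrays on which the probes were selected; on the left the warm BAT Treg arrays, at 6.98 on average, lie closest to the cold BAT Treg arrays.

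Side by side, the 594 probes had a median log2 difference of 1.40 between warm BAT Treg and SPL Treg cells and of 0.41 between cold and warm BAT Treg cells. All tested probes had medians of -0.08 and -0.04. The 314 probes had medians of -0.97 and -0.28. Each of these comparisons shares 3 arrays with the one that selected the probes, so the values are descriptions. Between warm BAT Treg and SPL Treg cells, 442 of all tested probes were called higher (2.54%) and 150 lower (0.862%). Between cold and warm BAT Treg cells, 13 were called higher (0.0747%) and 2 lower (0.0115%).

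The called probes were also compared in Tconv cells, on other arrays. Cold BAT Tconv cells share no array with the 6 compared, but share the BeadChips, the tissue and temperature, and the normalization, filter and pooled spread. Against SPL Tconv cells, the 594 probes had a median log2 difference of 0.46, and 55 of them (9.26%) were called higher, against 0.926% of all tested probes. More than 2-fold higher were 157 (26.4%, against 6.28%). The 314 had a median of -0.25, and 5 (1.59%) were called lower, against 0.236%, while 15 (4.78%, against 2.24%) exceeded 2-fold downwards. With warm BAT Tconv cells in place of cold ones, the medians were 0.43 and -0.35. In this comparison 90 of the 594 (15.2%, against 1.9%) were called higher and 13 of the 314 (4.14%, against 0.759%) lower. Medians over all tested probes were -0.01 and -0.03 in these comparisons. Most of the 594 probes were therefore not called between BAT and spleen in Tconv cells. With cold BAT, 534 of them (89.9%, against 48.4% of all tested probes) were above 0, and with warm BAT 500 (84.2%, against 46.9%).

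A part of these probes was also called between Treg and Tconv cells on the warm BAT BeadChip, which holds none of the 6 arrays. It shares with them the normalization, the filter and the pooled spread. Its tissue is that of the cold BAT Treg arrays, and its temperature is that of the SPL Treg arrays. Its Treg arrays share the cell type of both groups. The paper's supplement describes warm BAT and spleen Treg cells as taken from the same mice. The median log2 difference of the 594 was 0.67 on the warm BAT BeadChip, against -0.03 over all tested probes. Of the 594, 512 (86.2%, against 45.3%) were above 0, and 66 (11.1%, against 0.569%) were called higher in warm BAT Treg cells, with 1 called lower. The 314 had a median of -0.21, with 239 (76.1%, against 54.7%) below 0 and 7 (2.23%, against 0.19%) called lower.

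Whether the BAT minus spleen difference was larger in Treg than in Tconv cells was tested directly. Cold BAT Treg minus cold BAT Tconv was set against SPL Treg minus SPL Tconv, so that each subtraction stays within a BeadChip and a shift common to all arrays of a BeadChip cancels. An effect of array position that differs between BeadChips would not cancel. The estimate was less precise, with a median SE of 0.40 against 0.29. The difference was larger in Treg cells at 34 probes (0.195%) and smaller at 25 (0.144%), more than 2-fold at a limma adjusted p under 0.05, while 2135 probes (12.3%) had an unadjusted p under 0.05. The smallest limma adjusted p was 2.64e-05.

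The 34 probes included changes in either cell type. Their median log2 difference between cold BAT and spleen was 1.99 in Treg and -0.01 in Tconv cells, and 30 of them were among the 594 called higher. The remaining 4 were not called in Treg cells. In cold BAT Tconv against SPL Tconv cells, 9 of the 34 were more than 2-fold lower (against 2.24% of all tested probes). Of the 34, 4 were called lower (against 0.236%) and 1 was called higher (against 0.926%). On the warm BAT BeadChip, 28 of the 34 were higher in Treg than in Tconv cells (against 45.3% of all tested probes), with a median of 0.62. Of the 34, 10 (29.4%, against 0.569%) were called so. The 25 probes were of another kind. Their median was -0.90 in Treg and 1.12 in Tconv cells, 11 were among the 314 called lower, and 11 were called higher in cold BAT Tconv against SPL Tconv cells, where 0.926% of all tested probes were. The Tconv values are one side of the estimate that selected these probes, as the Treg values are. On the warm BAT BeadChip 18 of the 25 were lower in Treg than in Tconv cells (against 54.7% of all tested probes), with a median of -0.15. Of the 25, 2 (8%, against 0.19%) were called so.

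**Figure D5:**
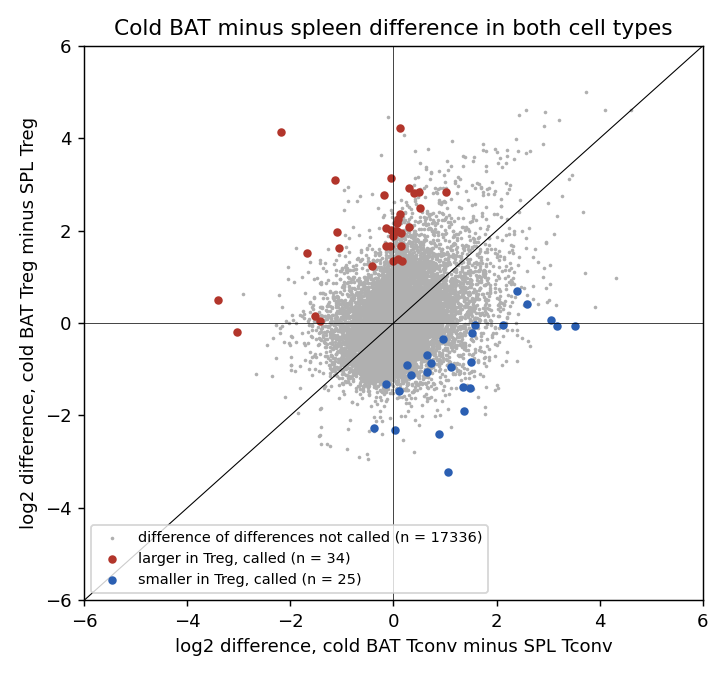
Log2 difference between cold BAT and spleen for each tested probe in Treg (vertical axis) and Tconv cells (horizontal axis), with the line of equality. The 34 probes with a larger difference in Treg cells (red) mostly lie near 0 for Tconv and around 2 for Treg cells, and the 25 with a smaller one (blue) lie mostly at positive values for Tconv and negative values for Treg cells.

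Of the 594 probes called higher, 30 (5.05%) had a larger difference in Treg cells by this test, and of the 314 called lower, 11 (3.5%) a smaller one. The selection used the Treg side of the same estimate, so these shares have no independent meaning. For the rest, a difference between the cell types was not shown, which does not make them alike. Counts of the difference of differences varied with single arrays. Without cold BAT Treg replicate 3 there were 205 larger and 54 smaller, without SPL Tconv replicate 1 there were 65 and 108, and over the 12 arrays left out in turn 20 of the 59 probes (33.9%) were called every time. Among the named probes, ILMN_1243082 passed the test at -4.28 (SE 0.84, limma adjusted p = 0.0465), and was called in 5 of 22 alternative settings, with adjusted p between 0.00258 and 0.144. The others did not pass, with 1.28 for ILMN_1243212 (limma adjusted p = 0.486), 2.05 for ILMN_1241293 (0.151) and -2.45 for ILMN_3041149 (0.369).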

How the data were processed

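The authors deposited a single table of bead intensity averages by probe and array, neither normalized nor background-corrected per the file headers and its values, together with a detection p-value, the bead SD and the number of beads. How the detection p-value was computed is not given in the sources used here. From the deposited columns, the intensity of 45267 regular and 936 negative control probes was processed with limma 3.58.1 in R 4.3.3. Its neqc function used the negative controls to correct for background, and then applied an offset of 16, quantile normalization over the 18 arrays and a log2 transformation. Fold changes are on this scale, which understates those of dim probes. Testing was limited to the 17395 probes (38.4%) that some group detected, at a p-value under 0.05, on each of its 3 arrays. All 18 arrays were fitted with a mean for each group (12 residual degrees of freedom), followed by moderated tests and Benjamini-Hochberg adjustment over the tested probes. The difference of differences was a contrast of the same model. Control intensities were compared as deposited, on the log2 scale. Where stated, undetected signals were raised to the lowest signal detected on their array. That level is not a strict limit, since an undetected signal can exceed it. On cold BAT Treg replicate 3, ILMN_3041149 was undetected at 5.16, while the lowest detected signal was 5.12.

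The rule for single probes took the 2 largest log2 differences in each direction, out of the called probes whose groups did not overlap. The probes and comparisons were chosen with earlier results of these data known. A list of gene markers could not be applied to probes without names. Alternatives were the background correction, offset, scaling, filter, array weights, a replicate block, a fit of the compared arrays, arrays left out and the methods' t-test. The code of the fit was run on simulated data with independent noise. Those data held no BeadChip effect and no spread that differs between groups, so the run does not bear on these limits. The number of arrays limits the precision. No 2 arrays were duplicates (highest correlation 0.93). The 36 columns with numbers of outlying and failed beads were not used. Figures were drawn with matplotlib 3.10.9 in Python 3.11.15.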

Additional observations from a re-analysis of the deposited data

Results flagged for a closer look

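The BAT minus spleen difference differed between Treg and Tconv cells, by a test of the difference itself within BeadChips, at 34 probes that had a larger value in Treg and 25 that had a smaller one. Of these 59 probes, 20 were called whichever of the 12 arrays was left out. The log2 difference of differences of ILMN_1243082 was -4.28 by the same test, with cold BAT Treg cells below SPL Treg cells on all 3 arrays of each group, whereas the SPL Tconv arrays spread from 6.23 to 9.18 and the cold BAT Tconv arrays from 8.45 to 9.06.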

How the results depend on the processing

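Counts of probes called between cold BAT Treg and SPL Treg cells (594 higher, 314 lower) were within 1.5 times the reported ones with a detection p-value under 0.01 (616, 324), a filter on signals above the negative controls' 95th percentile (613, 341), array weights (594, 310) and a replicate block (581, 321). They moved further without background correction (315, 35), with an offset of 50 (371, 92), with median scaling (1469, 15), with no filter (367, 169) and in a fit of only the arrays compared (204, 49). A filter chosen after seeing the data, detection on all 6 arrays compared, gave 143 higher and 297 lower. With 1 array left out in turn, counts ranged from 356 to 814 higher and from 100 to 470 lower. The paper's methods name a t-test for its data in general, and no test for these arrays in particular. Such a t-test at an unadjusted p under 0.05 called 695 higher and 389 lower with log2 signals, of which Benjamini-Hochberg adjustment left 12 and 2. With uncorrected linear signals the same t-test called 247 and 18, and 0 and 0 after adjustment. The cause of these changes was not tested, except that fewer arrays or probes entered some fits.

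The difference of differences (34 larger in Treg, 25 smaller) gave 20 and 12 without background correction, 58 and 4 with median scaling, 16 and 8 with array weights, and 1 and 8 with detection on all 6 arrays compared. With no filter 12 were smaller, and in a fit of only the arrays compared 6 were. The replicate block gave 30 and 17. With 1 array left out, counts ranged from 16 to 205 larger and from 7 to 108 smaller. The direction of 2 uncalled values turned. ILMN_1241293 went from -0.22 to 0.064 between cold and warm BAT Treg cells without cold BAT Treg replicate 3 (range with an array left out -0.44 to 0.064), and ILMN_3041149 from -0.50 to 0.22 between cold BAT Tconv and SPL Tconv cells without SPL Tconv replicate 1 (range -1.55 to 0.22).

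The replicate numbers did not pair the cold BAT Treg with the SPL Treg arrays, which came from mice at different temperatures. Deviations from the group means of same-numbered arrays of these groups correlated at 0.05, 0.02 and 0.01, and 1 of 3 arrays matched its own number best. Between these groups the block therefore shares only a number. Whether same-numbered Treg and Tconv arrays, or warm BAT and spleen arrays, came from the same mice was not tested. The difference of differences treated them as unpaired. Counts per gene were not run, for want of gene names. Signal over background limits the folds of probes undetected in the spleen, which hold under the reported background correction and offset only.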
